A study of Mus musculus with 16 samples.

Results

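Genes that drive and carry out cell division were examined in mouse primary hepatocytes and primary pancreatic islets. They were taken from a list of 52 gene symbols that names cyclins, cyclin-dependent kinases, replication factors and mitotic proteins. The symbols were chosen by name, though with earlier results of these data known. Of these symbols 47 were among the 18111 of the deposited expression table. The other 5 (Mki67, Cdk1, Cdk4, Aurkb and Kif20a) were not found in it under those names, and the kinase now called Cdk1 is present under its older symbol Cdc2a, which is also on the list. Of the 47 genes 43 could be tied to array probes. Ccna2, Ccnb2 and Hmmr stood at the lower limit of the table on all 16 arrays and Cks2 on all but 1, and no level is given for these 4.

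Cells of wild type B6 mice were kept in culture with or without FK866, an inhibitor of NAMPT, the enzyme of the salvage route to NAD, and the stated purpose was to see the effect of NAD depletion. Hepatocytes received 200 nM FK866 and islets 10 nM for 48 h, controls of both tissues received 0.1% DMSO, and each of the 4 groups has 4 Illumina bead arrays numbered 1 to 4. The labels do not say whether the numbers stand for separate animals or cultures, and all p-values rest on the variation among these arrays, some or all of which could be technical. Values are log2 signals after background correction and quantile normalization.

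A dividing cell first makes D-type cyclins in response to growth signals, which release the E2F factors that switch on replication genes. Licensing factors load the MCM helicase onto DNA, enzymes of nucleotide supply feed DNA synthesis, and cyclin B with Cdk1 then starts mitosis, in which kinesins, centromere proteins and a checkpoint on the spindle part the chromosomes. Most of these transcripts are low in resting cells. Adult hepatocytes rarely divide in the healthy liver but can re-enter the cycle after loss of liver tissue and on stimulation by growth factors, and beta cells of adult islets also divide rarely, with cyclin D2 as their main D cyclin in mice.

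Across the arrays 11018 to 11846 of 25697 probes were detected, and the number of arrays limits the precision. Of the hepatocyte markers measured, 6 of 7 were detected on every hepatocyte control array and 1 of 7 on every islet control array. Beta cell markers were detected on every islet control array for 9 of 10 genes and on every hepatocyte control array for 3 of 10 (Ins1, Iapp and Slc2a2). Markers of other cell types were detected in both cultures. Summed signals of the duct and cholangiocyte markers ranged from 23477 to 30137 on hepatocyte control arrays and from 6942 to 10005 on islet control arrays, those of fibroblast and stellate markers from 12527 to 16746 and from 2367 to 5174, those of endothelial markers from 3765 to 6596 and from 3988 to 8547, and those of macrophage markers from 3612 to 5201 and from 8338 to 13687. Of the fibroblast and stellate markers 5 of 12 were detected on every hepatocyte control array (Acta2, Dcn, Thy1, Vim and Sparc) and 4 on 0 (Col1a2, Col3a1, Lum and Pdgfrb), and of the macrophage markers 3 of 11 on every one (Cd68, Cd14 and Lyz) and 5 on 0 (Csf1r, Emr1, C1qa, Cd163 and Clec4f). In islets 6 of 12 and 9 of 11 were detected on every control array. T and B cell markers were detected on 0 control arrays of either tissue. Both islet arrays numbered 2 stood apart, with median signals of 15.4 and 18.0 against 26.9 to 33.1 on the other islet arrays and median correlations with the other islet arrays of 0.837 and 0.919 against 0.975 to 0.990.

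The cell cycle transcripts were detected more widely in hepatocytes than in islets. Of the 43 genes 36 were detected on all 8 hepatocyte arrays and 16 on all 8 islet arrays, which is 83.7% and 37.2% of them, against 7727 and 7423 of all 14847 named genes (52.0% in hepatocytes). In hepatocytes Cdc25c, Kif11, Tpx2 and Bub1b were detected on 4 to 7 arrays, and Gmnn, Bub1 and Ube2c on 0. In islets 5 genes were detected on 4 to 7 arrays, 6 on 1 to 3 and 16 on 0. Detection on all 8 hepatocyte arrays and on 0 islet arrays held for 10 genes and for 3.13% of all named genes, and 0 of the 43 were detected on more islet than hepatocyte arrays.

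The promoters of the genes that carry the later results are shown first, because the genes of DNA replication and those of mitosis differ in the control sequences before their start sites. The mitotic genes are known for the cell cycle genes homology region (TTTGAA), often placed near CCAAT boxes, and the replication genes for E2F sites, of which the forms TTCCCGC and TTGGCGC were searched. All motifs were searched on both strands in windows from 250 bases before to 50 bases after each RefSeq start. Below are the 170 bases before the start, 5′ to 3′ on the strand of the gene, from RefSeq on mouse build GRCm38.p6, with the matches to any of these motifs in capitals. Cdk1, Cdc20, Top2a and Prc1 stand for mitosis, and Mcm5, Mcm6 and Cdk2 for the start of replication.
Cdk1 (chr10:69352913-69353082, minus strand): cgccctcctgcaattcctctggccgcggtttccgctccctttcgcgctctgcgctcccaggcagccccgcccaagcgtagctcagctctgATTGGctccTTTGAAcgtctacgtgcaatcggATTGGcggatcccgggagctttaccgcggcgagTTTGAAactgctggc
Cdc20 (chr4:118437344-118437513, minus strand): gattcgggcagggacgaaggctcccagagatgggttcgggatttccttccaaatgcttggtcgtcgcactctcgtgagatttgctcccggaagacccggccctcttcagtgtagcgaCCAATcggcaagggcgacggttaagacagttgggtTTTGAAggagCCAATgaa
Top2a (chr11:99024190-99024359, minus strand): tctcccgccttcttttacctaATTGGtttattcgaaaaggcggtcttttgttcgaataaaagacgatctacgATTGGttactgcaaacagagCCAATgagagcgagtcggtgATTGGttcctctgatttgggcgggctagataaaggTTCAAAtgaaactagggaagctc
Prc1 (chr7:80294306-80294475, plus strand): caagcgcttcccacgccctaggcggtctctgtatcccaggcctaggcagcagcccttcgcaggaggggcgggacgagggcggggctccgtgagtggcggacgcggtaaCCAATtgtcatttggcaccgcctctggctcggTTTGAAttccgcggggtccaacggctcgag
Mcm5 (chr8:75109339-75109508, plus strand): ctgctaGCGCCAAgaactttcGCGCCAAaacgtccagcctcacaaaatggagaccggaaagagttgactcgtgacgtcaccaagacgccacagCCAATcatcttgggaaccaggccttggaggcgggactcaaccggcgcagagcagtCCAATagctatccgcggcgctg
Mcm6 (chr1:128359706-128359875, minus strand): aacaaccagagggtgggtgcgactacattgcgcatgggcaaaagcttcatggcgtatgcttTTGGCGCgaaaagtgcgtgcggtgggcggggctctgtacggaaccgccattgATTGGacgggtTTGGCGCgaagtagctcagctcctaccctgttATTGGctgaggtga
Cdk2 (chr10:128705052-128705221, minus strand): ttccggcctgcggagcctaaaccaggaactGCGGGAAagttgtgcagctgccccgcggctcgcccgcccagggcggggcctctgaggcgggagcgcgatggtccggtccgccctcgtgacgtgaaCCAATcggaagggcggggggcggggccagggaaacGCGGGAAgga

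In the Cdk1, Cdc20, Top2a and Prc1 stretches the homology region nearest the start began 15, 18, 23 and 30 bases before it, with CCAAT boxes on 1 or both sides. Mcm5 and Mcm6 each held 2 E2F forms and Cdk2 also held 2, and none of these 3 stretches held TTTGAA. Windows were available for 38 of the 47 genes, and for 27025 genes in all. They were not given for Ccnd1, Ccnd2, Ccne2, Ccna2, Mcm4, Cdc25c, Gmnn, Tpx2 and Foxm1. TTTGAA stood in 15 of 21 windows of mitotic genes (71.4%) and in 1 of 15 of genes of the E cyclin, licensing and DNA synthesis groups (6.67%), against 20.2% of all genes. An E2F form stood in 2 of 21 mitotic genes (9.52%) and in 8 of 15 replication genes (53.3%), against 7.79% of all genes. CCAAT boxes were found in 28 of 38 genes (73.7%) against 41.1%, and all 16 genes with TTTGAA also had one. TTGGCGC can share letters with a CCAAT box, which happened in Ccnb1 and Mcm7. These matches are letters in a window and not measured binding sites.

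**Figure D1:**
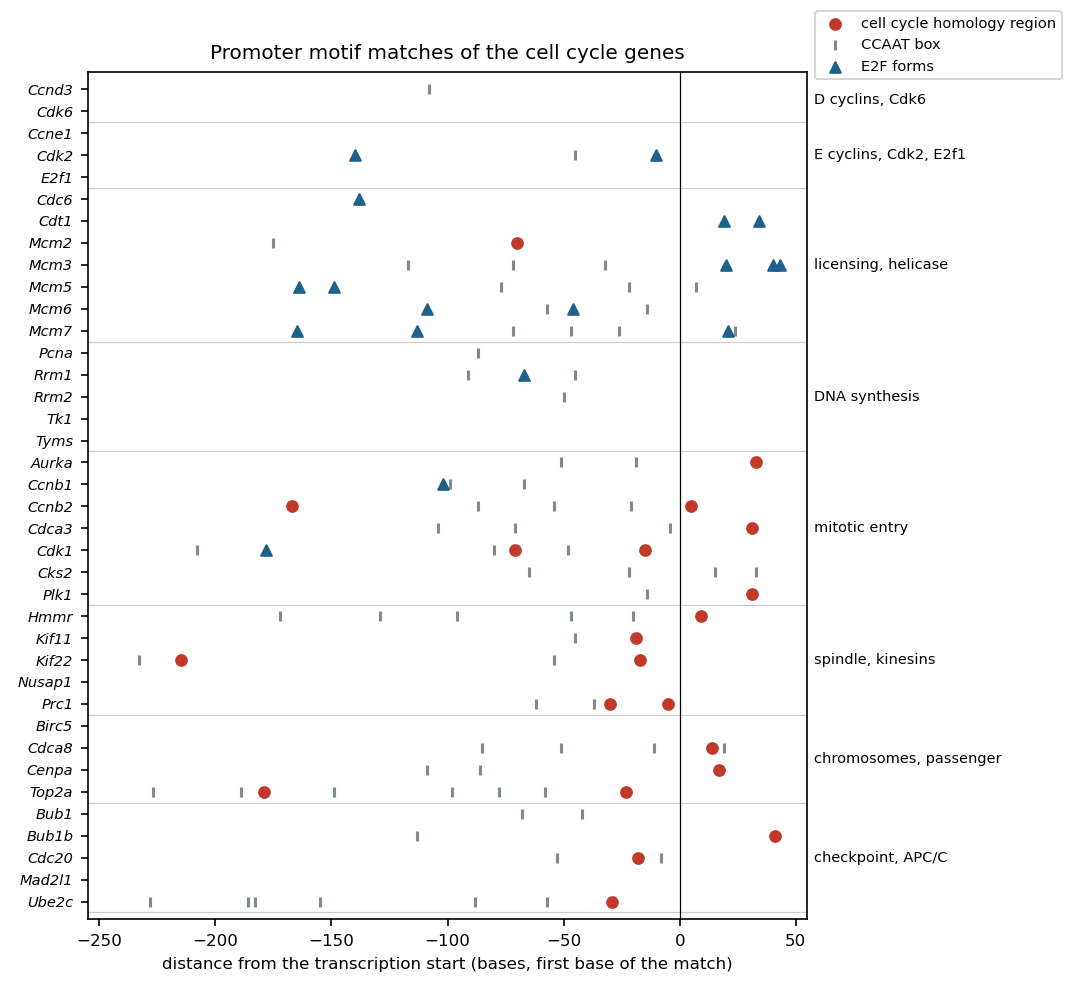
Distance in bases from the transcription start (x axis) of the first base of each motif match in 38 cell cycle genes, in rows by role, with red circles for the cell cycle genes homology region, grey bars for CCAAT boxes and blue triangles for the E2F forms (Prc1 is shown for both its RefSeq starts). Red circles stand in 15 of 21 mitotic genes and in Mcm2, and blue triangles in 8 of 15 replication genes and 2 of 21 mitotic genes.

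In controls, the comparison of tissues asked where these genes are active. Of the 38 genes tested, 36 were higher in hepatocytes and 2, both D cyclins, were higher in islets (limma, adjusted p under 0.05 over 9366 genes, n = 4 arrays per group). Over all genes tested 31.5% were higher in hepatocytes and 35.1% in islets. The median difference, hepatocyte minus islet, was 2.72 log2 for the 38 genes and -0.06 for all genes. The hepatocyte and islet control arrays did not overlap for 37 of the 38 genes (97.4%), E2f1 being the exception, against 61% of all genes. A gene needed detection on at least 4 of the 8 control arrays, and the hepatocyte arrays alone met this for all 38 genes. Only 18 of them were also detected on every islet control array. For the rest the islet signal was not told from background on some or all arrays. The filter thus favoured higher hepatocyte values for them, and they enter the counts and median above. Among genes detected on all 8 control arrays, 16 of 18 cell cycle genes were higher in hepatocytes and 2 in islets, with a median of 2.55, against 27.4% and 34.4% of 6499 genes. In whole cultures like these, fewer cells of a type and less RNA per cell cannot be told apart. The macrophage, fibroblast and duct markers differed between the tissues as given above, and their part in the result was not tested.

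**Figure D2:**
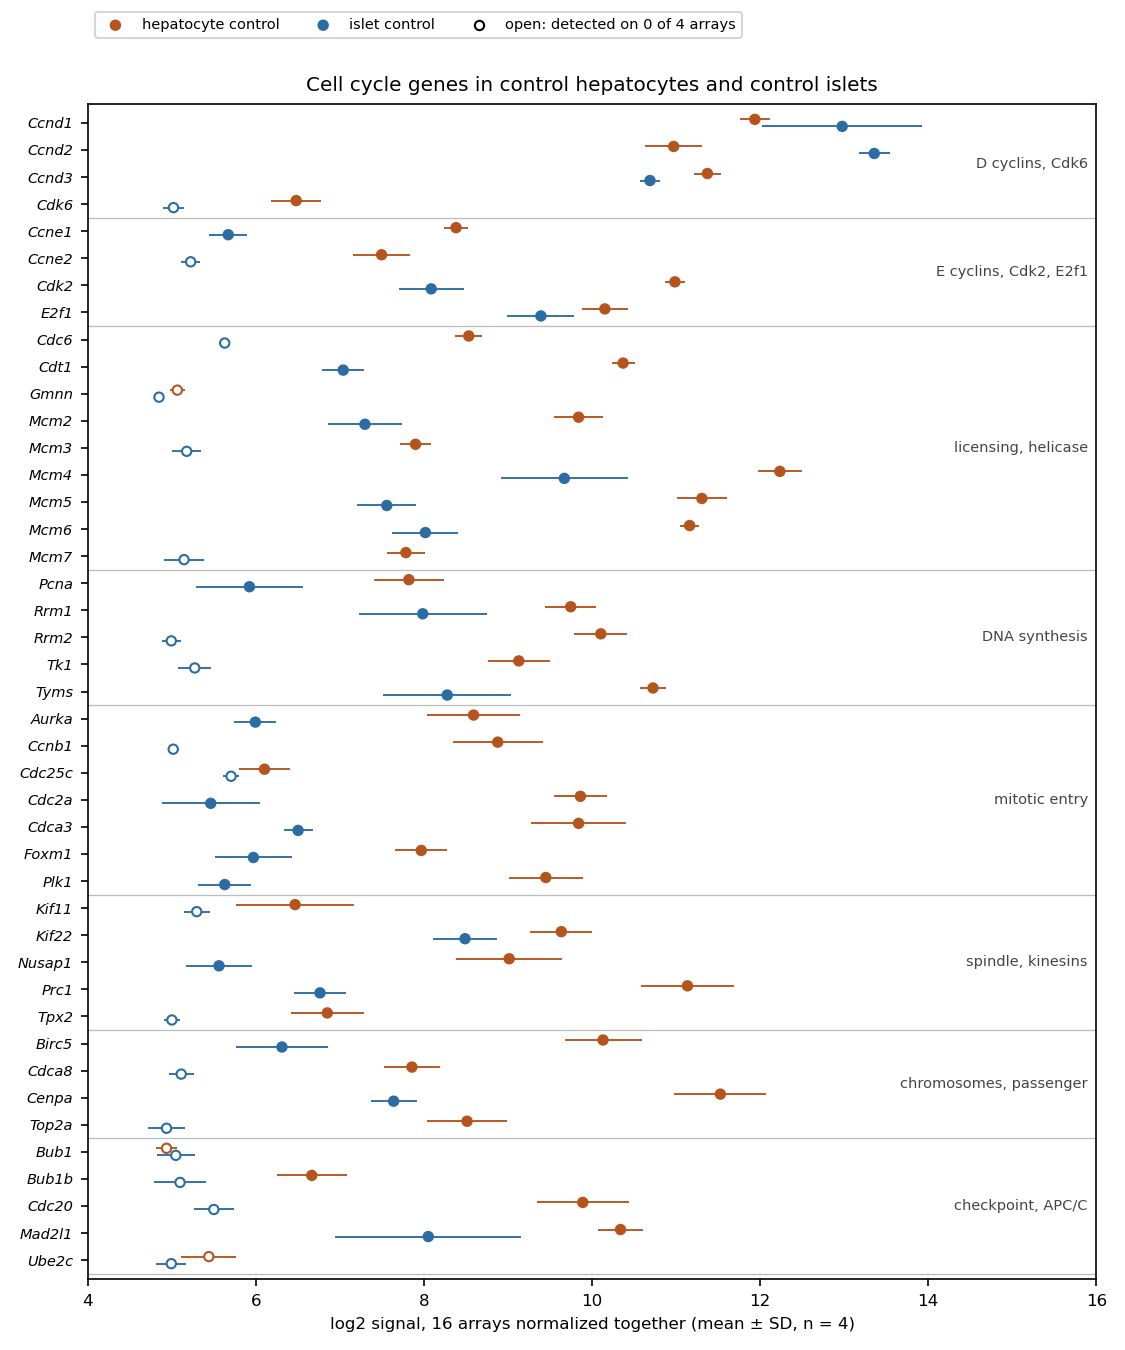
Log2 signal of 43 cell cycle genes by role in hepatocyte (orange) and islet (blue) control arrays, as means with SD of 4 arrays, with open points for genes detected on 0 of 4 arrays; signals of different genes come from different probes and cannot be set against each other. Orange lies to the right of blue in every row but those of Ccnd1 and Ccnd2, which passed the test, and Bub1, which was detected on no array.

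The D cyclins couple growth signals to the cycle. Of the 3 measured, 2 were higher in islets and 1 in hepatocytes, and with their kinase Cdk6 the median difference was -0.18 log2 over 4 genes. Ccnd2 gave 10.51, 11.31, 11.01 and 11.06 on hepatocyte control arrays 1 to 4 and 13.26, 13.63, 13.34 and 13.21 on islet control arrays. All islet arrays lay above all hepatocyte arrays, and Ccnd2 was 5.23-fold higher in islets (2.39 log2, SE 0.19, limma adjusted p = 1.7e-08, n = 4). Ccnd1 gave 11.88, 11.77, 11.91 and 12.18 in hepatocytes and 12.64, 14.38, 12.29 and 12.59 in islets. Islet array 2, which stood apart over all genes, was far above the other islet arrays. Ccnd1 was 1.04 log2 higher in islets (SE 0.39, limma adjusted p = 0.0279), and without islet control array 2 the difference was 0.57 and did not pass (limma adjusted p = 0.0727). The call was also lost without hepatocyte control array 1 (1.02), 2 (0.98) or 3 (1.03). Ccnd3 was higher in hepatocytes by 0.68 log2 (SE 0.17). Cdk6, a kinase partner of the D cyclins, was detected on all hepatocyte but 0 islet control arrays, and its hepatocyte level was at least 1.54-fold the islet level. An at-least fold sets the hepatocyte mean against the higher of the gene's own signal and the lowest detected signal on each islet array. It is a bound for the probe that stands for the gene and not for the gene's other probes. A limma p-value printed with such a fold compares the signals as measured, with islet values at background, and does not test the bound.

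Genes of the entry into DNA synthesis were higher in hepatocytes, with a median of 2.49 log2 for the E cyclin group and all 4 of its tested genes past the threshold. Cdk2, the kinase that cyclin E activates, was higher by 2.90 log2 (SE 0.20, 7.46-fold) and was detected on all arrays of both tissues. Its cyclins Ccne1 and Ccne2 were higher by 2.71 log2 (SE 0.20) and by at least 3.11-fold, with Ccne1 detected on 1 islet control array and Ccne2 on 0. E2f1, a transcription factor of replication genes, differed least in this group, by 0.76 log2 (SE 0.23, limma adjusted p = 0.0078), and its arrays overlapped.

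All 8 tested licensing and helicase genes were higher in hepatocytes, by 2.54 to 3.75 log2 and a median of 2.81. The helicase subunit Mcm5 was higher by 3.75 log2 (SE 0.24, 13.4-fold) and Mcm6 by 3.14 (SE 0.19, 8.84-fold), both from probes detected in islets too. Cdt1, which brings the helicase to origins, was higher by 3.33 (SE 0.15). Cdc6, its partner in loading, went undetected on all islet control arrays and reached at least 6.37-fold higher levels in hepatocytes. Mcm3 and Mcm7 were at least 4.11-fold and 3.80-fold higher.

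All 5 genes of nucleotide supply and DNA synthesis were higher in hepatocytes, with a median of 2.45 log2. Rrm2, the regulated subunit of ribonucleotide reductase, gave 9.99, 9.73, 10.46 and 10.24 on hepatocyte control arrays and 4.88, 4.94, 5.02 and 5.14 on islet control arrays, where it was not detected. The groups lay far apart, and on this probe Rrm2 was at least 18.9-fold higher in hepatocytes (limma adjusted p = 4.3e-11, n = 4). A further Rrm2 probe, detected on 4 of the 8 islet arrays, had an islet minus hepatocyte difference of -3.22 log2, in the same direction but smaller than that bound. Pcna, the sliding clamp of replication, gave 7.36, 8.37, 7.79 and 7.77 in hepatocytes and 6.32, 4.97, 6.13 and 6.28 in islets. The tissues did not overlap, and Pcna was higher in hepatocytes by 1.90 log2 (SE 0.28, limma adjusted p = 2.3e-05). The thymidine kinase Tk1 was at least 9.63-fold higher, thymidylate synthase Tyms was higher by 2.45 log2 (SE 0.35) and Rrm1, the large subunit of ribonucleotide reductase, by 1.76 (SE 0.32). Another Tyms probe, detected on 8 hepatocyte and 6 islet arrays, had an islet minus hepatocyte difference of -2.28 log2. On a Tyms probe detected on 5 hepatocyte and 7 islet arrays it was 0.10, so the tissue difference did not hold on every probe. The remaining Tyms probes were detected on 0 islet arrays.

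Of the role groups, chromosome structure with the passenger complex and mitotic entry had the largest medians, 3.70 and 3.58 log2. Of their 4 and 6 tested genes 2 and 1 were detected on all 8 control arrays, so these medians rest in part on islet signals at background. Cdc2a, which encodes the mitotic kinase Cdk1, gave 9.98, 9.41, 9.92 and 10.14 on hepatocyte control arrays and 5.51, 6.25, 4.89 and 5.20 on islet control arrays, of which 1 detected it. The tissues lay far apart on this probe, with a difference of 4.40 log2 (SE 0.29, limma adjusted p = 1.8e-09, n = 4), whose size rests on islet signals that 3 of 4 arrays did not tell from background. The other Cdc2a probes, detected on 0 hepatocyte arrays, had islet minus hepatocyte differences of 0.002 and 0.33 log2. Ccnb1, its cyclin, gave 9.20, 8.09, 9.01 and 9.21 against 4.95, 5.04, 5.06 and 5.01. No islet array detected it, which puts the hepatocyte level at least 8.09-fold above the islet level (limma adjusted p = 1.2e-07). Hepatocyte array 2 was the lowest of its group for both genes.

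Prc1, which bundles the microtubules of the dividing spindle, gave 11.38, 10.32, 11.31 and 11.53 in hepatocytes and 6.70, 6.37, 7.12 and 6.87 in islets, and was detected on every array. It was higher in hepatocytes by 4.37 log2 (SE 0.34, 20.7-fold, limma adjusted p = 1.1e-08). Cenpa, the histone variant that marks centromeres, gave 11.90, 10.74, 11.56 and 11.89 against 7.57, 7.90, 7.29 and 7.80, a difference of 3.89 log2 (SE 0.32, 14.8-fold, limma adjusted p = 2.2e-08). For both, every hepatocyte array lay well above every islet array. Top2a, the topoisomerase that untangles sister chromatids, gave 8.56, 7.84, 8.76 and 8.89 against 4.94, 4.76, 5.25 and 4.80 and was not detected in islets, so it was at least 6.29-fold higher (limma adjusted p = 2.3e-08). Birc5, the survivin subunit of the passenger complex, was higher by 3.82 log2 (SE 0.30) and Cdca8, another subunit, at least 3.99-fold.

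The spindle and checkpoint groups had medians of 2.65 and 2.29 log2, no higher than those of the licensing group. Cdc20, which activates the anaphase-promoting ubiquitin ligase, gave 10.13, 9.09, 10.01 and 10.33 in hepatocytes and 5.20, 5.54, 5.78 and 5.48 in islets. The islet arrays did not detect it on this probe, on which it was at least 16.3-fold higher in hepatocytes (limma adjusted p = 1.3e-08, n = 4). On its other probes the islet minus hepatocyte differences were smaller, at -2.41, -3.86 and -3.11 log2. Mad2l1, a checkpoint protein that restrains Cdc20, was higher by 2.29 log2 (SE 0.49) and was detected on every array. The kinesin Kif22 differed by 1.15 (SE 0.25), the spindle protein Nusap1, detected on 1 islet control array, by 3.45 (SE 0.38), Tpx2 at least 1.98-fold and the checkpoint kinase Bub1b at least 1.75-fold. Kif11 and Cdc25c were detected on 3 hepatocyte and 0 islet control arrays and were not tested.

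**Figure D3:**
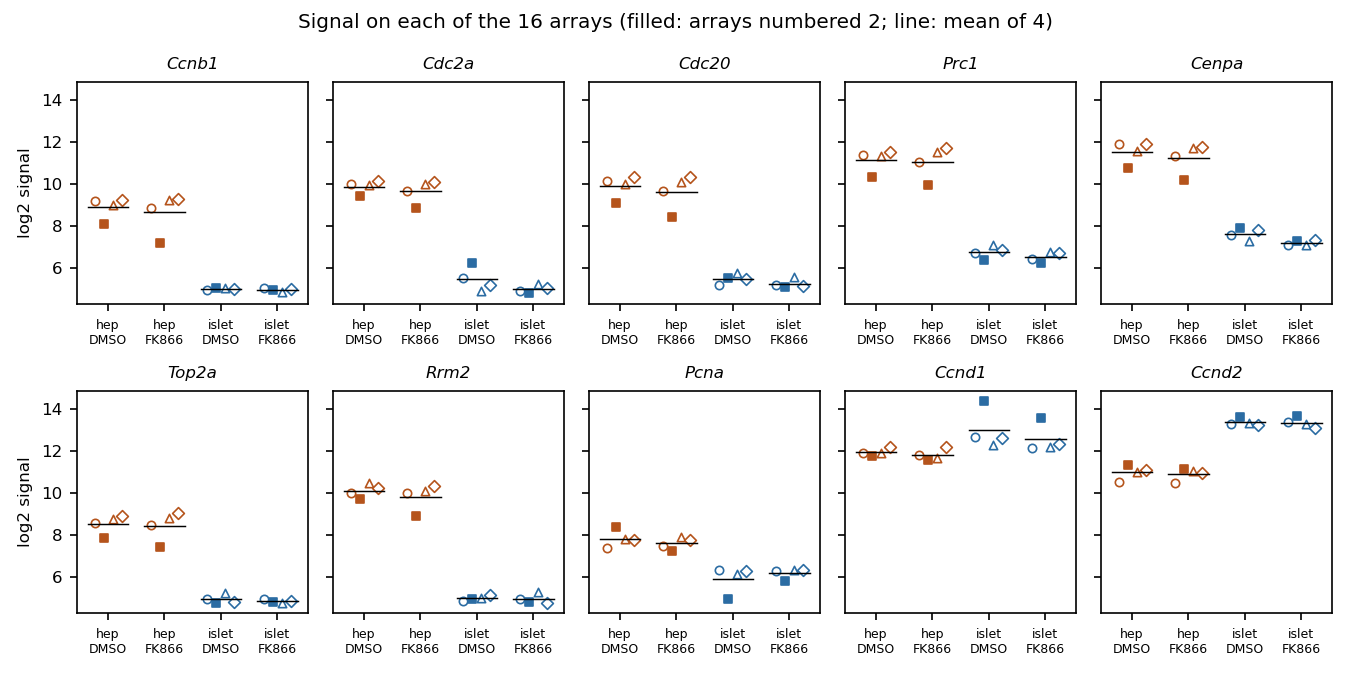
Log2 signal of 10 cell cycle genes on each of the 16 arrays (normalized together), in hepatocytes (orange) and islets (blue) with DMSO or FK866. Each symbol shape is an array number, lines are means of 4, and the filled squares, arrays numbered 2, are the lowest hepatocyte points for Ccnb1, Cdc2a, Cdc20, Prc1, Cenpa, Top2a and Rrm2 and the highest islet points for Ccnd1, and FK866 and DMSO columns of a tissue overlap.

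Other genes of the pathway were counted from a list of 95 symbols, of which 68 were measured and 56 tested between tissues. Of these 29 were higher in hepatocytes and 11 in islets, with a median of 0.76 log2, against the 31.5% and 35.1% of all genes given above. Medians by function were 2.45 log2 for other mitotic genes, 1.02 for origin, fork and repair factors, 0.12 for other regulators and -0.74 for inhibitors and pocket proteins, and the lists were not tested against each other. Of the other mitotic genes 9 of 12 were higher in hepatocytes and 2 in islets. Among the former were the cytokinesis protein Anln by 4.89 log2 (SE 0.36, detected on 1 islet control array) and the kinesin Kif2c by at least 5.75-fold. Ndc80, Kif2c, Kif4 and Kif23 were detected on 0 islet control arrays and Cdca5, Ncaph and Anln on 1. They met the filter through the hepatocyte arrays, which favoured higher hepatocyte values in this count and in the median of 2.45. Among the genes detected on every control array, Incenp and Ncapd2 were higher in hepatocytes, Spc25 and Bub3 in islets, and Spc24 was not called. Of origin, fork and repair factors 15 of 25 were higher in hepatocytes and 3 in islets, among the former Dbf4, which activates the kinase that fires origins, by 3.52 (SE 0.32, detected on 3 islet control arrays). Of other regulators 3 of 10 were higher in hepatocytes and 1 in islets. Of the inhibitors of cyclin-dependent kinases and the pocket proteins, which hold cells out of the cycle, 5 of 9 were higher in islets and 2 in hepatocytes. Cdkn1c was higher in islets by 2.12 log2 (SE 0.47, detected on 2 hepatocyte control arrays), Rb1 by 1.18 (SE 0.14) and Cdkn1b by 1.04 (SE 0.26), while Cdkn1a was higher in hepatocytes by 1.72 (SE 0.20) and Rbl1 by 1.84 (SE 0.23, detected on 2 islet control arrays).

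FK866 gave no call among the cell cycle genes. In hepatocytes 0 of 40 tested genes passed (limma, adjusted p = 1.00 for each, n = 4 arrays per group), against 0% of 8565 genes tested, and 0 of the 40 had an unadjusted p under 0.05 against 1.69% of all genes. With the replicate number as a block 0 passed, and 6 of 40 had an unadjusted p under 0.05 against 6.25% of all genes. The estimates, FK866 minus control, were below 0 for 35 of 40 genes and had a median of -0.13 log2, against 49.7% below 0 and a median of 0.00 for all genes. For 34 of 40 genes (85%) the 95% interval lay within 2-fold in either direction, against 99.3% of all genes, so changes of these genes were less tightly bounded. By pairs of equal number the medians were -0.12, -0.37, -0.03 and 0.03, and 7 of 40 genes (17.5%) were lower in all 4 pairs, against 6.98% of all genes. Without FK866 array 2 the median was 0.09, and without both arrays numbered 2 it was -0.04. Macrophage markers had pair medians of -0.29, -0.26, -0.17 and -0.21 over 4 genes and fibroblast and stellate markers of 0.24, 0.37, 0.19 and 0.03 over 6, and their part in the result was not tested.

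For FK866, signals are from the normalization of the 8 arrays of a tissue. Birc5 had the largest estimate in hepatocytes, with 10.38, 9.49, 10.29 and 10.53 on control arrays 1 to 4 and 9.84, 9.09, 10.25 and 10.24 with FK866. Each FK866 array was below the control of its number, but the groups overlapped, and the difference was -0.32 log2 (SE 0.29, 95% interval -0.97 to 0.34). Cenpa gave 12.00, 10.79, 11.66 and 11.99 in controls and 11.39, 10.21, 11.81 and 11.82 with FK866, a difference of -0.30 (SE 0.38). Cdca8 gave 8.05, 7.40, 7.95 and 8.14 and then 7.47, 6.86, 8.0 and 8.0, a difference of -0.30 (SE 0.26). In both, pairs 1 and 2 carried the lower values and the groups overlapped.

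Rrm2 gave 10.03, 9.76, 10.50 and 10.29 in control hepatocytes and 10.03, 8.92, 10.13 and 10.36 with FK866, so its difference of -0.29 (SE 0.29) lay in pairs 2 and 3. Mcm7 gave 7.54, 7.71, 7.99 and 8.01 and then 7.09, 7.37, 7.78 and 7.91. It was lower in all 4 pairs with a difference of -0.27 (SE 0.19, 95% interval -0.69 to 0.14), and the groups overlapped. Pcna gave 7.39, 8.40, 7.81 and 7.80 and then 7.53, 7.28, 7.92 and 7.80, a difference of -0.22 (SE 0.21) that was negative in pair 2 only. Ccnd1 differed by -0.13 (SE 0.14) and Ccnd2 by -0.09 (SE 0.19). Among mitotic genes Cdc2a differed by -0.22 (SE 0.27), Ccnb1 by -0.23 (SE 0.45) and Top2a by -0.08 (SE 0.35), with intervals from -1.23 to 0.78 for Ccnb1. Without FK866 array 2 the estimates of Cenpa (0.07), Rrm2 (0.03), Cdc2a (0.05), Ccnb1 (0.25) and Top2a (0.26) lay above 0. Without both arrays numbered 2, which keeps the pairs whole, they were -0.20, -0.10, -0.10, -0.02 and 0.03 in the same order. Cdk2 was higher in all 4 pairs on the probe that stands for it, with an estimate of 0.05 (SE 0.10). On its other probes, each detected on every hepatocyte array, the differences were 0.01, 0.01 and -0.29, the last of them lower in all 4 pairs.

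In islets 0 of 21 tested genes passed, with and without the block (limma, adjusted p = 1.00 for each without it, n = 4 arrays per group), against 0% of 8921 genes without the block and 0.0112% with it. At an unadjusted p under 0.05 stood 1 of 21 genes without the block, against 1.36% of all genes, and 5 of 21 with it, against 11.6%. The estimates were below 0 for 13 of 21 genes with a median of -0.12 log2, against 50.6% and -0.00 for all genes, and the pair medians were -0.08, -0.04, -0.20 and -0.13. Lower values in all 4 pairs were found for 7 of 21 genes (33.3%), against 12% of all genes. Without both arrays numbered 2 the median was -0.19, and without both numbered 3 it was -0.03. For 16 of 21 genes (76.2%) the 95% interval lay within 2-fold, against 66% of all genes. Over all 43 genes without the detection filter 27 estimates were below 0, with a median of -0.06. The pair medians of fibroblast and stellate markers in islets were 0.00, -0.59, -0.49 and 0.06 over 7 genes and those of endothelial markers 0.23, 0.15, -0.06 and 0.61 over 6, and their part in the result was not tested.

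Cdca3, a mitotic entry factor, gave 6.26, 6.40, 6.68 and 6.47 on islet control arrays and 5.59, 5.49, 6.68 and 5.81 with FK866. It was lower in all 4 pairs, though hardly in pair 3, with a difference of -0.56 log2 (SE 0.28, 95% interval -1.19 to 0.07), and was detected on 2 of 4 FK866 arrays. E2f1 gave 9.16, 9.93, 9.27 and 9.08 and then 8.73, 9.18, 8.83 and 8.72, lower in all 4 pairs (differences of -0.76 to -0.35). The groups overlapped only through FK866 array 2, and the difference of -0.49 (SE 0.23) did not pass with the block either (limma adjusted p = 0.259). Cenpa gave 7.54, 7.88, 7.25 and 7.78 and then 7.03, 7.26, 7.06 and 7.31. It was lower in all 4 pairs (differences of -0.62 to -0.20), with a fitted difference of -0.45 (SE 0.19, 95% interval -0.88 to -0.01), and did not pass over all genes (limma adjusted p = 1.00, or 0.309 with the block).

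Ccnd1 gave 12.51, 14.18, 12.19 and 12.47 in control islets and 12.02, 13.42, 12.09 and 12.19 with FK866. It was lower in all 4 pairs, with a difference of -0.40 (SE 0.49). Without both arrays numbered 2 it was -0.29, and without control array 2 alone, which leaves its high FK866 partner in, 0.04. On the other Ccnd1 probes, detected on every islet array, the differences were -0.39 and 0.04. The latter probe was higher with FK866 in pairs 1 and 3, so the fall in all 4 pairs did not hold on every probe. Ccne1 gave 5.58, 5.37, 5.92 and 5.57 and then 6.10, 5.34, 5.98 and 6.56, was detected on 1 control and 3 FK866 arrays, and differed by 0.38 (SE 0.27). Pcna differed by 0.26 (SE 0.32) and Ccnd2 by -0.02 (SE 0.19). On the question whether the islet change differed from the hepatocyte change, 0 of 40 genes passed (limma interaction, adjusted p = 1.00 for each, n = 4 arrays per group) against 0% of 9962 genes, and 0 of 40 had an unadjusted p under 0.05 against 1.7% of all genes. The doses differ between the tissues, so tissue and dose cannot be told apart in this comparison. Of the other pathway genes limma called 0 of 55 in hepatocytes and 0 of 47 in islets.

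**Figure D4:**
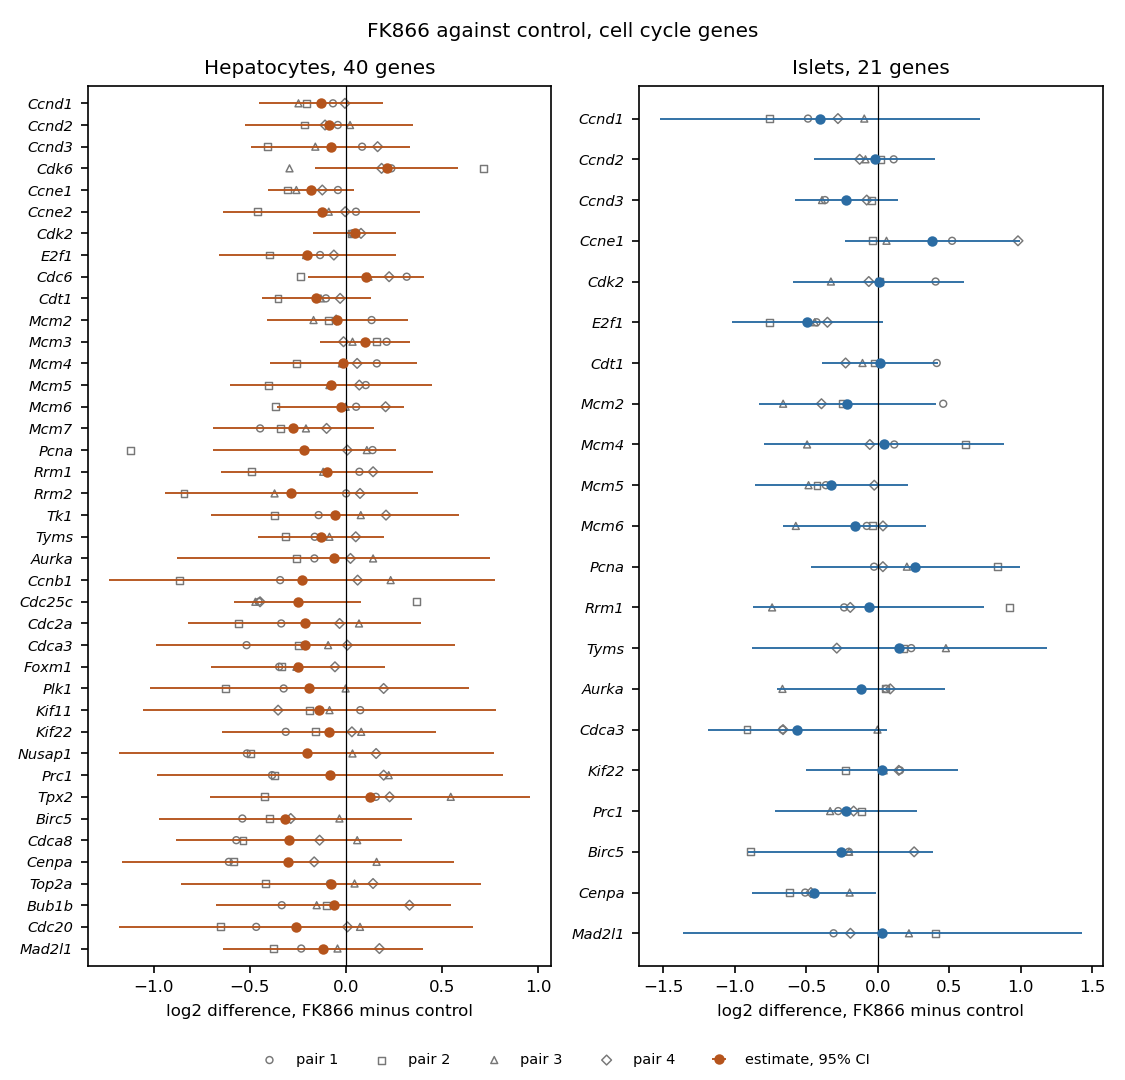
FK866 minus control in log2 for each tested cell cycle gene, 40 in hepatocytes and 21 in islets, ordered by role, with filled points for estimates with 95% intervals (4 arrays per group) and open symbols for the differences of the 4 pairs of equal array number. Most estimates lie a little left of 0, all but 1 interval cross 0 (Cenpa in islets), and in hepatocytes the squares of pair 2 lie left of 0 for 36 of 40 genes.

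Among hepatocyte arrays the larger differences of these genes followed the array number. Arrays of the same number in the control and FK866 groups deviated together across genes, and the number was therefore tested beside the FK866 term, a test added after these values were seen. The number was called for 26 of 40 cell cycle genes (65.0%) against 10.8% of all genes (limma F test, adjusted p under 0.05 over 8565 genes, n = 8 arrays). This F test asks whether the arrays of any number differ and does not say which. The arrays numbered 2 stood lowest. Against the mean of the other 6 arrays they were lower for 36 of 40 genes with a median of -0.66 log2, against 0.00 for all genes. Both lay below all 6 other arrays for 25 of 40 genes (62.5%), against 16% of all genes. Without both arrays numbered 2 the number was called for 0 of 40 cell cycle genes, and for 1.14% of all genes, while 17 of 40 had an unadjusted p under 0.05 against 20.4% of all genes. On the deposited scores 1 of 40 was called, against 0.922% of all genes, and 30 of 40 had an unadjusted p under 0.05 against 25% of all genes.

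The medians of the role groups are given as a description, over 3 to 8 genes each, and were not tested against each other. The median of number 2 minus the others was -1.31 log2 for spindle genes and kinesins, with all 5 called, and -1.16 for mitotic entry, with 6 of 7 called. It was -1.04 for chromosome structure, with all 4 called, and -0.79 for the checkpoint group, with all 3 called. DNA synthesis genes had a median of -0.67 (2 of 5 called), E cyclins with Cdk2 and E2f1 -0.30 (2 of 4), licensing and helicase genes -0.26 (3 of 8) and D cyclins with Cdk6 -0.09 (1 of 4). A call need not come from number 2. Mcm7 was called with a difference of -0.17 on number 2, and its lowest value was on FK866 array 1.

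Ccnb1 had the largest shift. It gave 9.23, 8.11, 9.03 and 9.24 on control arrays 1 to 4 and 8.89, 7.25, 9.27 and 9.30 with FK866, and the arrays numbered 2 were the lowest in either group, with a mean difference from the other 6 of -1.48 log2 (limma F test, adjusted p = 0.0283). Cdc20 gave 10.17, 9.12, 10.06 and 10.37 and then 9.71, 8.47, 10.13 and 10.38, a difference of -1.34 on number 2 (limma F test, adjusted p = 0.0166). Prc1 gave 11.47, 10.37, 11.38 and 11.62 and then 11.08, 10.00, 11.61 and 11.81, a difference of -1.31 (limma F test, adjusted p = 0.0159). These 3 genes had means on the arrays numbered 2 more than 2-fold below those of the others. So did further genes, among them Nusap1 (-1.46, limma F test, adjusted p = 0.0139) and Cenpa, whose values are given above.

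Top2a gave 8.59, 7.86, 8.79 and 8.92 and then 8.50, 7.45, 8.83 and 9.06, a difference of -1.13 on number 2 (limma F test, adjusted p = 0.0121). Cdc2a gave 10.03, 9.44, 9.96 and 10.18 and then 9.69, 8.88, 10.03 and 10.15, a difference of -0.85 (limma F test, adjusted p = 0.0325). Both arrays numbered 2 were again below the other 6. The kinase Aurka (-1.17, adjusted p = 0.00859) and Cdca3 (-1.17, adjusted p = 0.0119) were also called by the limma F test. The motor Kif11 was called too (limma F test, adjusted p = 0.00761), but was detected on 6 of 8 arrays and stood at 5.48 and 5.29 on those numbered 2, near background, so no size is given. Cdk2 gave 10.92, 10.96, 11.13 and 11.16 and then 10.96, 10.99, 11.17 and 11.24, so the arrays numbered 2 lay inside the range of the others, and it was not called (-0.12, limma F test, adjusted p = 0.132). Mcm3 differed by 0.04. Ccnd2 went the other way, with 10.55, 11.39, 11.06 and 11.12 and then 10.51, 11.17, 11.09 and 11.01, higher by 0.39 on number 2. It was called (limma F test, adjusted p = 0.0205), but the arrays that stood furthest from the others were those numbered 1, at 10.55 and 10.51. Ccnd1 gave 11.98, 11.86, 12.00 and 12.28 and then 11.91, 11.66, 11.76 and 12.27, and was not called (-0.27, limma F test, adjusted p = 0.0526).

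**Figure D5:**
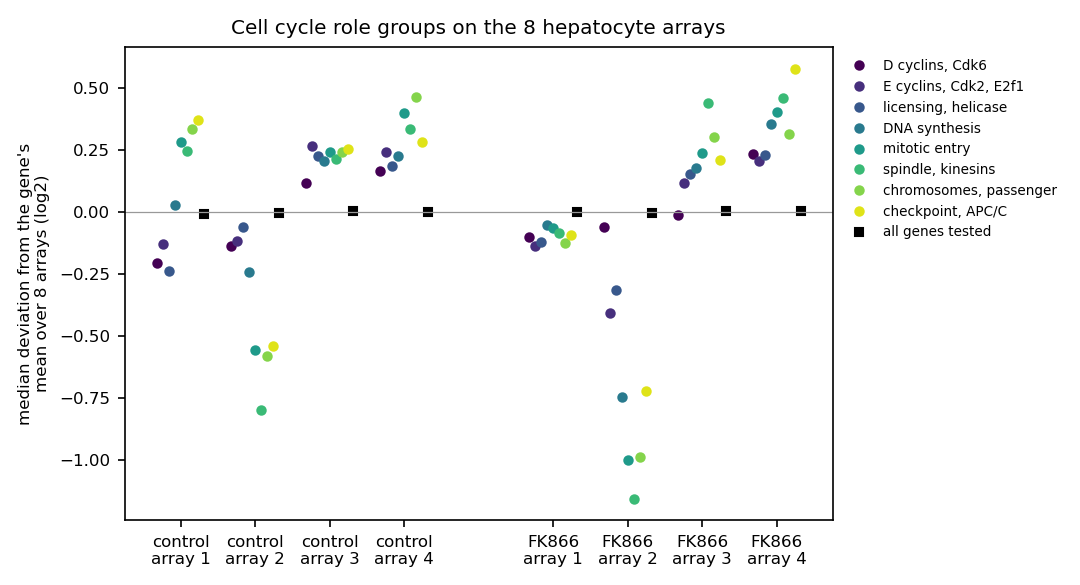
Median deviation of each role group from its genes' means over the 8 hepatocyte arrays, in log2, for control and FK866 arrays 1 to 4 (arrays have no order). Colours are role groups, black squares all 8565 genes tested. On both arrays numbered 2 the spindle, mitotic entry, chromosome and checkpoint groups lie far below 0, the spindle group lowest at -0.80 on control array 2 and -1.15 on FK866 array 2, while all genes stay near 0 on every array.

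Set beside the promoters shown above, the 13 tested genes with TTTGAA in their window were all lower on the hepatocyte arrays numbered 2, with differences of -1.41 (Kif11, near background on those arrays) to -0.32 log2 and a median of -1.16, and all 13 were called. The 20 genes without it ranged from -1.48 (Ccnb1) to 0.13, with a median of -0.46 and 9 called. Ccnb1 and Nusap1 (-1.46), both without TTTGAA in their window, were lower on number 2 than any gene with it. Genes with an E2F form had a median of -0.30 over 10 genes and those without of -0.88 over 23. These counts are a description made after the values were seen, and the motif classes largely coincide with the role groups. Of the other pathway genes the array number was called in hepatocytes for 8 of 13 mitotic genes (61.5%), 4 of 10 other regulators (40%), 2 of 8 inhibitors and pocket proteins (25%) and 5 of 24 origin, fork and repair factors (20.8%), against the 10.8% of all genes. On the same arrays the hepatocyte markers had a median of number 2 minus the others of -0.35 log2 over 6 genes, duct and cholangiocyte markers of -0.34 over 4, endothelial markers of 0.30 over 8, fibroblast and stellate markers of -0.01 over 6 and macrophage markers of -0.03 over 4, and their part in the result was not tested.

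In islets the array number was called for 9 of 21 cell cycle genes (42.9%), against 54.1% of all genes (limma F test, 8921 genes, n = 8 arrays), and without both arrays numbered 2 for 0 of 21, with 1 at an unadjusted p under 0.05, and for 0% of all genes. The islet arrays numbered 2 were not low as a group, with a median of 0.05 and 10 of 21 genes lower. Ccnd1 was higher on them by 1.56 log2 (limma F test, adjusted p = 0.00165). Mad2l1 gave 8.59, 6.35, 8.42 and 8.72 in controls and 8.28, 6.75, 8.64 and 8.53 with FK866, a difference of -1.98 on number 2 (limma F test, adjusted p = 0.00115). Tyms gave 8.60, 7.19, 8.24 and 8.96 and then 8.84, 7.37, 8.72 and 8.67, a difference of -1.40 (limma F test, adjusted p = 0.00262). With all 16 arrays normalized together, a Tyms probe detected on 6 islet arrays was also low on number 2, at 5.11 and 5.24 against 6.07 to 6.61. Another, detected on 7, was high there, at 7.08 and 6.42 against 5.45 to 6.20, so the direction for Tyms depended on the probe. For these 3 genes, on the probes that stand for them, both arrays numbered 2 lay outside the range of the other 6. On those arrays fibroblast and stellate markers differed by a median of 0.98 over 7 genes, endothelial markers by 0.58 over 6, duct and cholangiocyte markers by -0.67 over 3, acinar markers by -0.84 over 3, alpha, delta and PP cell markers by -0.62 over 5 and beta cell markers by -0.10 over 10, and their part in the result was not tested.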

How the data were processed

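Signal intensity and a detection p-value per probe and array, and a score per gene symbol, were used as the authors deposited them. By their values, the deposited intensity values were linear and background-subtracted, and their distributions differed between arrays. The deposited detection p-value says whether a probe exceeds the negative controls. The deposited score equals the log10 signal (floor 1) centred and scaled on each array, by its values. The scanner software and the probe annotation were not named in the labels or file headers. All per-sample columns were mapped to samples (0 left unmapped).

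Probes carry no gene names, so they were named by matching their log10 signals to the scores within 1e-07. This matched 14847 of 14848 symbols above the floor on at least 4 arrays, to 22178 of 25697 probes. From Pmpcb to Il22ra2 the islet scores of 5015 genes stood 1 row above the row of their gene. Of these, 3099 could be tested, and all matched once moved down by 1 row. Of the 43 cell cycle genes with probes 26 had 1 probe and 17 had 2 to 5, 79 in all. The probe with the highest mean over 16 arrays stood for a gene.

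limma 3.58.1 (R 4.3.3) corrected the background by neqc with an offset of 16, quantile normalized and took log2, per tissue for FK866 and the array number and over all 16 arrays for the comparison of tissues and the interaction. Genes were tested when detected (p under 0.05) on at least 4 of 8 arrays, over the whole table, with Benjamini-Hochberg adjustment at 0.05. Scripts were tested on simulated data. Motifs, counts and figures were made in Python 3.11.15 with pandas 2.3.3 and matplotlib 3.10.9.

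Members and lists were chosen with earlier results of these data known. Values are given in full for Top2a, Cdc2a, Ccnb1, Pcna, Ccnd1 and Ccnd2, for the 6 largest called differences between tissues in each direction and for the 5 largest FK866 estimates per tissue. Genes named for the array number were chosen after their values were seen. Within a tissue, departures from the group mean correlated at 0.385 to 0.615 between hepatocyte arrays of equal number and at 0.529 to 0.926 between islet arrays, against -0.369 to 0.0777 and -0.847 to 0.667 for unequal numbers. The numbers were therefore taken as pairs, from the data and not from the labels. Alternatives covered the normalization, filter, probe, variance model, offset, block and arrays left out.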

Additional observations from a re-analysis of the deposited data

Results flagged for a closer look

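For the genes given with values on every array, 44 groups of 4 arrays that all detected the gene were searched for an array whose gap to its nearest neighbour took up most of the group's range (Dixon's criterion). Such an array was found in 4 groups, and chance gives about 1 in 20. All 4 were arrays numbered 2. Ccnd1 was 14.38 on islet control array 2 against 12.29 to 12.64 on the other islet controls, and 13.53 on islet FK866 array 2 against 12.12 to 12.30. Birc5 was 7.12 on islet control array 2 against 5.97 to 6.10. Cdca3 was 8.99 on hepatocyte control array 2 against 10.06 to 10.18.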

How the results depend on the processing

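All FK866 counts stayed at 0 in both tissues and in the interaction under every alternative run, the replicate block included, which changed no call of a cell cycle gene. The hepatocyte median of -0.13 ranged from -0.26 to 0.09 when 1 array was left out and turned positive (0.0900) without FK866 array 2. The islet median of -0.12 ranged from -0.2026 to -0.0478 when 1 array was left out, and was -0.1881 without both arrays numbered 2 and -0.0292 without both numbered 3, with and without the replicate block. The count higher in hepatocytes was 36 to 39 under all alternatives, and that in islets 1 to 2 when 1 array was left out, and 1 on the deposited scores and with control arrays alone, where Ccnd1 missed the threshold. For the array number in hepatocytes the 26 calls became 1 on the scores and 15, 0 and 13 without both arrays numbered 1, 2 and 4, and the 9 islet calls became 4 on the scores, 5 without the detection filter, and 0 and 5 without both arrays numbered 2 and 4. The cause was not tested, though leaving out a pair leaves fewer arrays. Of the 240 alternative values of the 10 genes named between tissues 234 kept direction and call and 6, all of Ccnd1, lost the call. Of 264 and 160 FK866 values in hepatocytes and islets, 13 and 9 changed sign, and 0 were called. Genes near the detection limit in islets allow only bounds.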
